A study of Mus musculus with 16 samples.

Results

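Interferon-stimulated genes are the genes that cells switch on when an interferon binds its receptor, and 45 of them were followed here across the aortas of Sham mice and of mice with chronic kidney disease (CKD) on 3 diets. The 45 genes were chosen by name and are 45 of the 54532 genes in the deposited tables. All 45 were found there. For the descriptions below they were split into 10 groups by role, from transcription factors to antigen processing.

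The aortas came from male C57BL/6J mice that were 12 weeks old at the first surgery, with 4 mice and 4 libraries in each group. In 5/6 nephrectomy (5/6 Nx), a model of CKD, both poles of the left kidney were ligated and the right kidney was removed a week later. Sham mice had the surgery without ligation or removal. After 2 weeks of recovery, Sham mice were given the HPi-Lp diet, with 2% phosphorus and 2.5% protein. The operated 5/6 Nx-HPi-Lp group received that diet as well. In the 5/6 Nx-HPi-Hp group the diet held 2% phosphorus with 18% protein, and in the 5/6 Nx-LPi-Lp group it held 0.3% phosphorus with 2.5% protein. Below, HPi-Lp mice, HPi-Hp mice and LPi-Lp mice always means these 3 groups of 5/6 Nx mice, and the Sham mice are called Sham. The labels give 30 days on the diet and the study's methods 4 weeks. Since no Sham mice on the other 2 diets are among these libraries, a difference of HPi-Hp or LPi-Lp mice from Sham holds the surgery and the diet together. All groups are whole-vessel samples of male mice of 1 strain, and in such bulk samples fewer cells of a type and less RNA per cell cannot be told apart.

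Type I interferons (interferon-alpha and interferon-beta) signal through the receptor pair Ifnar1 and Ifnar2 to the kinases Jak1 and Tyk2. The kinases activate a complex that includes Stat2 and Irf9 and binds the interferon-stimulated response element (ISRE). Type II interferon (interferon-gamma) signals through Ifngr1 and Ifngr2 and acts on another element, the gamma-activated site (GAS). The induced proteins sense, trap or degrade viral RNA, tag or cleave proteins, or load peptides onto class I molecules, and macrophages, endothelial cells and fibroblasts of the vessel wall can all express them.

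The 2 elements are what the promoters of these genes are known for, so they were searched in RefSeq promoter windows on GRCm38.p6, each from 250 bases before to 50 bases after the start of the gene. The ISRE core was GAAANNGAA or its reverse complement TTCNNTTTC, and the GAS core was TTCNNNGAA, which is its own reverse complement. The table held a window for 36 of the 45 genes, with 42 windows in all. Mx1, Mx2, Oas2, Parp14, Iigp1, Dhx58, Ifi27l2a, Usp18 and Zbp1 had none. An ISRE core was present in 21 of the 36 genes (58.3%), against 2638 of all 27025 genes in the table (9.76%). A GAS core was present in 12 of the 36 (33.3%), against 2582 of all genes (9.55%), and 7 genes held both. Of the 37 ISRE matches in these windows, each counted even where such matches overlapped one another, 1 overlapped a GAS match, in Bst2. Where an ISRE core began before the start, the one nearest to it began at a median position of -65 (20 genes, positions counted from the start), and in 13 of these genes within 100 bases of it. The core of Ifi44 ran across the start, from -3 to 5, and 19 genes held a core wholly before the start. These are matches of letters in a window and not measured binding sites, and a gene without a match may hold the element elsewhere.

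The stretches below show the ISRE core in genes that were called higher in HPi-Lp mice than in Sham (Ifit1, Oas1a, Oas3, Trim30a), in Isg15, which passed the adjusted p alone, and in genes that did not pass (Igtp, Irgm1, Gbp2, Bst2). Irf8, which was called and whose window held no ISRE core, is shown for its GAS cores. Capitals mark the ISRE and GAS cores and run together where cores overlap.
Ifit1 (chr19:34640775-34640833, plus strand, from base -114 to base -56 relative to the start): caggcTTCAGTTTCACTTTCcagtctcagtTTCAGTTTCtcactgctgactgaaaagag
Isg15 (chr4:156200856-156200904, minus strand, from base -86 to base -38 relative to the start): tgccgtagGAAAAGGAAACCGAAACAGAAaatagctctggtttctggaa
Oas1a (chr5:120907526-120907559, minus strand, from base -34 to base -1 relative to the start): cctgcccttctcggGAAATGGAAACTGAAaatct
Oas3 (chr5:120777700-120777748, minus strand, from base -89 to base -41 relative to the start): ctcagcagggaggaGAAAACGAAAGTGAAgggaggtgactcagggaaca
Trim30a (chr7:104465200-104465248, minus strand, from base -55 to base -7 relative to the start): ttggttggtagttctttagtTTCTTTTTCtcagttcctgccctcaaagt
Igtp (chr11:58199502-58199550, plus strand, from base -54 to base -6 relative to the start): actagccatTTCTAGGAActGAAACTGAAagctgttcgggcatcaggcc
Irgm1 (chr11:48871421-48871464, minus strand, from base -44 to base -1 relative to the start): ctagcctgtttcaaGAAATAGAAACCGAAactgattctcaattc
Gbp2 (chr3:142620585-142620633, plus strand, from base -78 to base -30 relative to the start): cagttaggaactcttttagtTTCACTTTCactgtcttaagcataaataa
Bst2 (chr8:71537568-71537616, minus strand, from base -144 to base -96 relative to the start): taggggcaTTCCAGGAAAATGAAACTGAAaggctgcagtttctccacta
Irf8 (chr8:120736185-120736233, plus strand, from base -173 to base -125 relative to the start): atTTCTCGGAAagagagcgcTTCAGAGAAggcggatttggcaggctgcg

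In Isg15, Oas1a, Oas3, Irgm1 and Bst2, the matches to the ISRE core overlapped one another, so each stretch may be read as a single longer element. Of the 3 matches in Ifit1, 2 overlapped and the other lay close by. The GAS and ISRE cores of Igtp stood close together, and in Bst2 a GAS core overlapped an ISRE core. By role, the windows of 7 of 8 interferon-inducible GTPases held an ISRE core. It was in 2 of 3 IFIT genes, 2 of 4 OAS genes, 2 of 5 Schlafen genes and none of the 3 antigen-processing genes. Among genes with a window, 8 of the 16 that were called higher in HPi-Lp mice than in Sham held an ISRE core, and so did 13 of the other 20. Among genes with a window, the core was thus no more frequent in the called genes than in the rest. Most of the genes without a window (Mx1, Mx2, Oas2, Dhx58, Ifi27l2a, Usp18 and Zbp1) were themselves called. The called genes are therefore covered less fully than the rest.

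**Figure D1:**
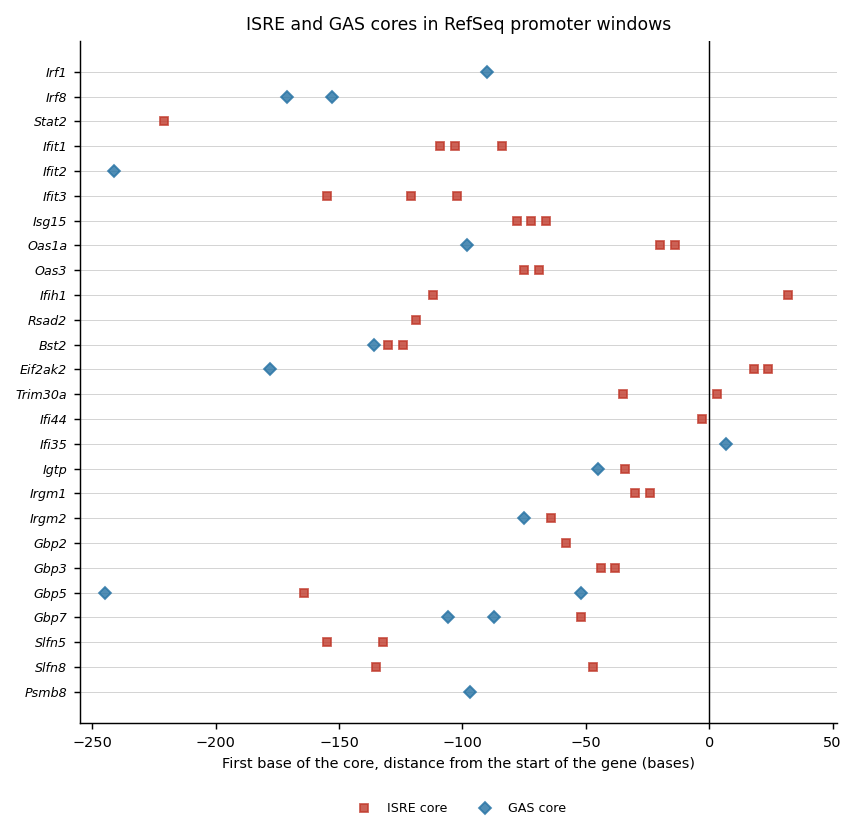
Distance in bases from the start of the gene (x axis, 0 is the start) to the first base of each ISRE core (squares) and GAS core (diamonds), for the genes (y axis) whose RefSeq windows held either. In 13 of 20 genes the nearest ISRE core that begins before the start does so within 100 bases of it. A core seen from a pair of listed starts, as in Slfn8, appears at both distances.

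Library totals ran from 13659525 to 57276915 counts, so the counting error was small for all but the lowest of these genes. The 45 genes together took 0.0545% to 0.161% of all counts. Mitochondrially encoded genes took 4.18% to 6.34% of the counts in Sham, 19.3% to 27.1% in HPi-Lp mice, 9.5% to 29% in HPi-Hp mice and 14.2% to 21.1% in LPi-Lp mice. That share was lower in every Sham mouse than in every other mouse, and leaving the mitochondrial genes out of the library size kept each count of calls below within 1.5 times. The smooth muscle markers Myh11, Acta2, Tagln, Cnn1, Smtn and Lmod1, which define the tissue, were present in every library, with a summed level of 2223 to 25737 CPM (counts scaled to library size, with TMM factors). Averaged over the 45 genes, log2(CPM + 1) was 3.04 to 3.25 in the Sham mice and 3.15 to 3.40 in LPi-Lp mice. It was 3.52 to 4.05 in HPi-Hp mice. In HPi-Lp mice it was 4.12 to 4.17 in replicates 2, 3 and 4 and 3.66 in replicate 1, which stood apart from them.

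**Figure D2:**
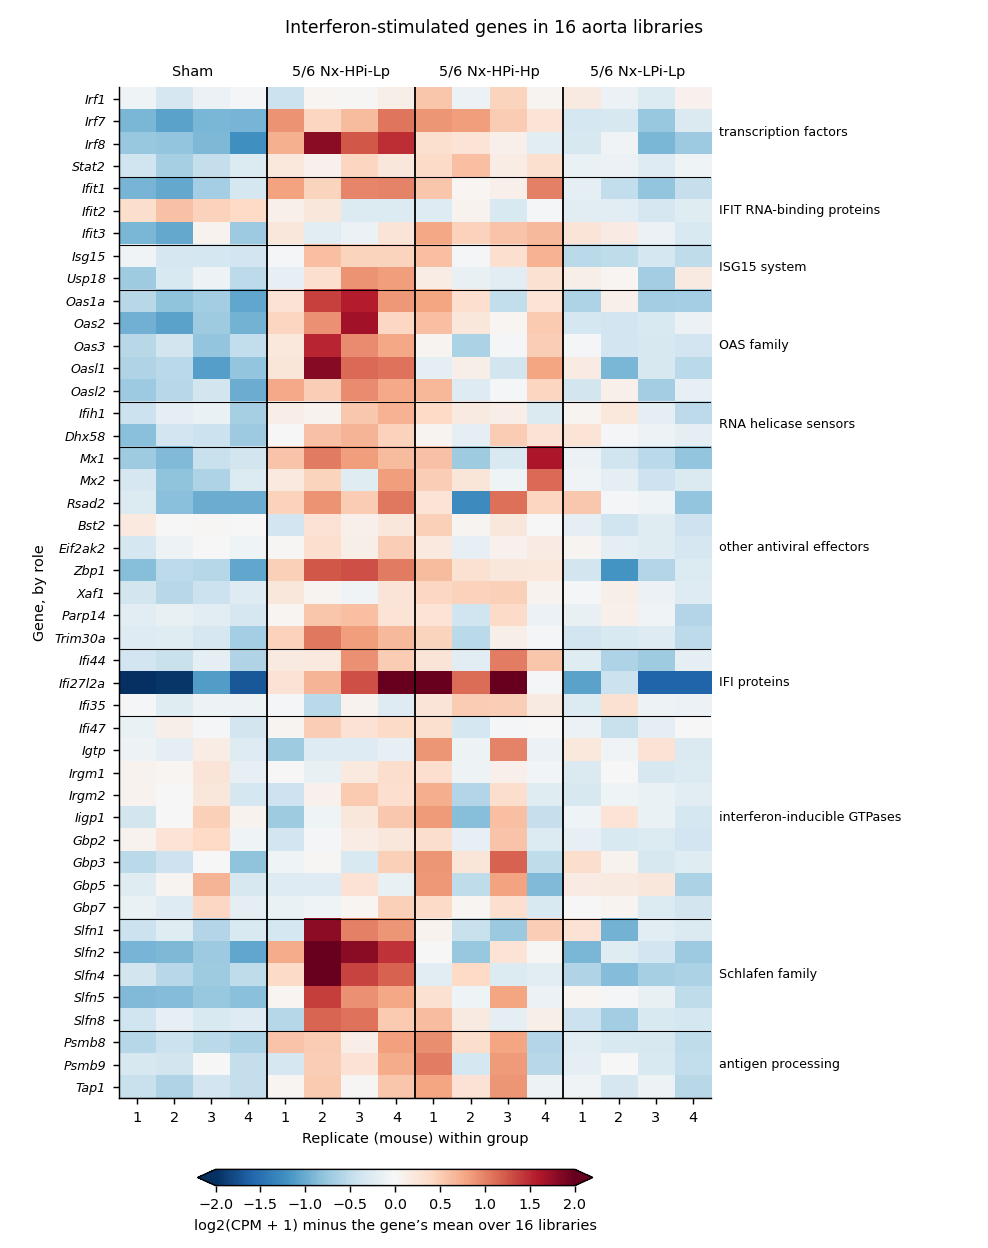
Each row is 1 of the 45 genes and each column 1 of the 16 libraries, with colour giving log2(CPM + 1) minus the gene's mean over the libraries. HPi-Lp replicates 2, 3 and 4 are redder than Sham in the OAS and Schlafen rows, and replicate 1 is not so in Slfn1 and Slfn8, while most rows of interferon-inducible GTPases are pale apart from replicates 1 and 3 of HPi-Hp mice.

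Per length, as the deposited FPKM (fragments per kilobase, scaled to depth), the 45 genes covered a wide range in Sham, from a mean of 0.0321 FPKM for Oas3 to 57.1 FPKM for Ifi27l2a. The 3 with the highest mean FPKM in Sham were Ifi27l2a, Bst2 (45.9 FPKM) and Ifi35 (19.3 FPKM). Ifi27l2a encodes a small interferon-induced membrane protein, and Bst2 is tetherin, which holds budding virus at the cell surface. In HPi-Lp mice Ifi27l2a reached a mean of 501.7 FPKM and in HPi-Hp mice 881 FPKM, against 89.9 FPKM in LPi-Lp mice. Most of the antiviral genes were low in Sham, with a mean under 1 FPKM for Oas1a (0.79), Oas2 (0.787), Mx1 (0.205), Zbp1 (0.476) and Rsad2 (0.541).

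The HPi-Lp mice and the Sham mice ate the same diet, so this comparison asks what the surgery changed on it. Relative to Sham, 23 of the 45 genes were higher in HPi-Lp mice and none was lower, by edgeR's quasi-likelihood test on the counts of the 8 libraries. A gene was called where its change was 2-fold or more and its Benjamini-Hochberg adjusted p, over all genes tested, was 0.05 or less. Of all 16513 genes tested, 15.0% were called higher and 7.18% lower by the same rule. The median log2 fold change was 1.13 over the 45 genes and -0.0027 over all genes. Without HPi-Lp replicate 1, which stood apart, 24 were called, and calls on the higher side over all genes went from 2480 to 2700. By the adjusted p alone, 33 of the 45 were higher and 1 was lower, against 22.7% and 20.2% of all genes. All 5 OAS genes and all 5 Schlafen genes were called, and none of the 9 genes listed as interferon-inducible GTPases was. Of the called genes, Oas3, Oasl1, Slfn1 and Slfn4 had at most 14 counts in any Sham library. With limma on log2(FPKM + 1), which compresses the folds of low genes, 12 of the 45 were called. Over all genes, 1256 were called higher with it.

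**Figure D3:**
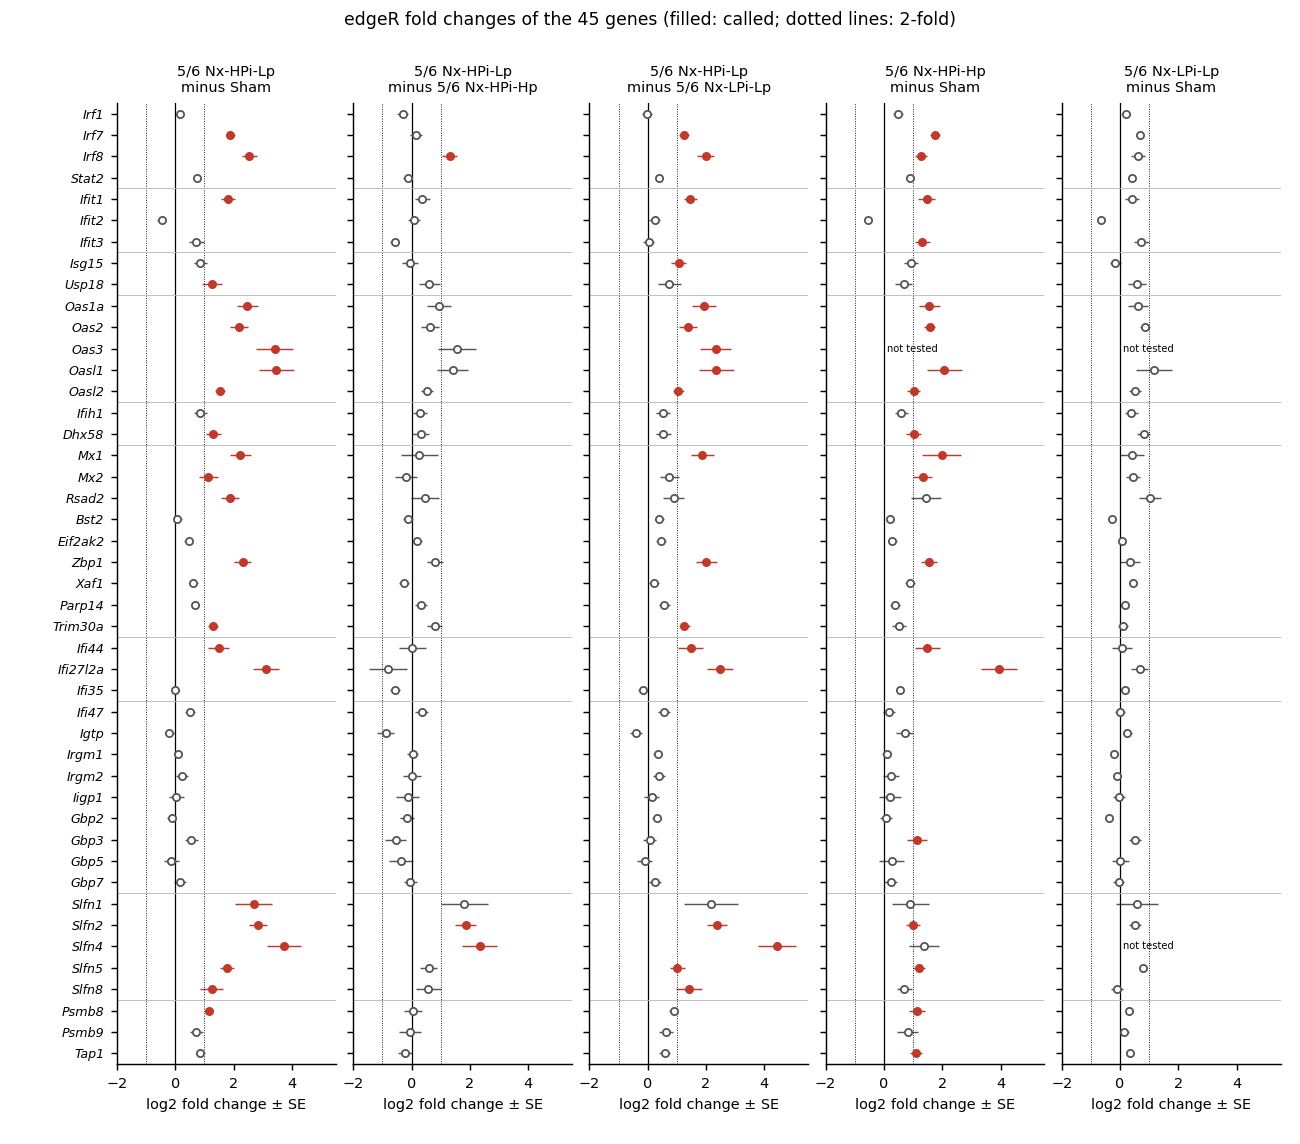
Log2 fold change with its standard error (x axis) for each gene (y axis, by role) in 5 comparisons, where filled red points were called and open points were not. The Schlafen and OAS rows lie beyond the dotted 2-fold line in the first panel, and no point in the last panel is filled.

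The transcription factors Irf7 and Irf8 rose, and Stat2 and Irf1 stayed under the 2-fold threshold. Irf7, the factor that amplifies type I interferon production, stood at 10.8, 9.57, 10.7 and 10.6 in Sham mice, 40.2, 28.9, 33.5 and 45.5 in HPi-Lp mice, 40.02, 38.6, 30.3 and 25.6 in HPi-Hp mice and 16.3, 16.8, 12.1 and 17.1 in LPi-Lp mice (CPM). Every HPi-Lp and every HPi-Hp mouse was above every Sham and every LPi-Lp mouse. Its log2 fold change was 1.88 ± 0.15 (SE; adjusted p = 3.31e-05) in HPi-Lp mice against Sham by edgeR, and 1.25 ± 0.17 (SE; adjusted p = 0.00263) against LPi-Lp mice. Irf8, a factor of the macrophage and dendritic cell lineages, was at 5.47, 5.38, 4.87 and 3.72 in Sham mice, 17, 37.4, 24.9 and 29.7 in HPi-Lp mice, 12.7, 12.3, 10.8 and 8.42 in HPi-Hp mice and 7.85, 9.48, 4.81 and 5.62 in LPi-Lp mice (CPM). The HPi-Lp mice lay above all others, and all HPi-Hp mice lay above all Sham mice. By edgeR, its log2 fold change was 2.54 ± 0.24 (SE; adjusted p = 6.06e-05) against Sham, 1.31 ± 0.25 (SE; adjusted p = 0.0127) against HPi-Hp mice and 1.98 ± 0.29 (SE; adjusted p = 0.00337) against LPi-Lp mice.

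Stat2, a part of the ISRE-binding complex, had the values 35.5, 29.1, 33.4 and 38.7 in Sham mice, 54.6, 49.6, 63.4 and 55.2 in HPi-Lp mice, 61.7, 71.4, 52 and 58.9 in HPi-Hp mice and 42.7, 43.2, 39.2 and 44.2 in LPi-Lp mice (CPM). The Sham mice were all lower than the mice of the other 3 groups. The log2 differences from Sham by edgeR were 0.76 ± 0.12 (SE; adjusted p = 0.000852), 0.90 ± 0.14 (SE; adjusted p = 0.00899) and 0.40 ± 0.11 (SE; adjusted p = 0.0192) for the HPi-Lp, HPi-Hp and LPi-Lp diets. Irf1, an early target of interferon-gamma, was at 38.5, 32.3, 37.7 and 40.01 in Sham mice, 30.3, 42.3, 41.8 and 44.6 in HPi-Lp mice, 60.9, 37.7, 56.5 and 42.5 in HPi-Hp mice and 46.7, 37.5, 33.9 and 43.5 in LPi-Lp mice (CPM). Its groups overlapped, and its log2 fold change against Sham in HPi-Lp mice was 0.15 ± 0.13 (SE; adjusted p = 0.393) by edgeR.

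The IFIT genes, whose proteins bind viral RNA at its end, did not move together. Ifit1 was at 3.28, 3.02, 4.06 and 5.38 in Sham mice, 13.2, 10.1, 14.9 and 15.2 in HPi-Lp mice, 11, 7.35, 7.72 and 15.4 in HPi-Hp mice and 6.12, 4.77, 3.71 and 4.9 in LPi-Lp mice (CPM), with no overlap between HPi-Lp mice and either Sham or LPi-Lp mice. By edgeR its difference on the log2 scale was 1.81 ± 0.24 (SE; adjusted p = 0.000298) against Sham and 1.45 ± 0.22 (SE; adjusted p = 0.00373) against LPi-Lp mice. Ifit3 was at 11.1, 10.2, 22.8 and 12.8 in Sham mice, 25.7, 18.4, 19.9 and 26.2 in HPi-Lp mice, 37.7, 30.2, 32.8 and 34.6 in HPi-Hp mice and 26.2, 24.5, 19.9 and 17.4 in LPi-Lp mice (CPM). The HPi-Hp mice were the highest, without overlap, and Sham replicate 3 lay within the range of HPi-Lp mice. By edgeR its log2 fold change was 1.32 ± 0.24 (SE; adjusted p = 0.00956) in HPi-Hp mice against Sham and -0.58 ± 0.16 (SE; adjusted p = 0.0452) in HPi-Lp mice against HPi-Hp mice. The latter is the only one of the 45 that passed the adjusted p on the lower side in that comparison, where 5.95% of all genes did.

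Ifit2 went the other way, with 17.6, 20.8, 19 and 18.2 in Sham mice, 14.6, 16, 11.1 and 11 in HPi-Lp mice, 11.1, 14.3, 10.8 and 13.1 in HPi-Hp mice and 11.5, 11.5, 10.5 and 11.4 in LPi-Lp mice (CPM). Every 5/6 Nx mouse lay below every Sham mouse. The log2 difference from Sham by edgeR was -0.47 ± 0.16 (SE; adjusted p = 0.0353) on the HPi-Lp diet, -0.55 ± 0.14 (SE; adjusted p = 0.0173) on the HPi-Hp diet and -0.66 ± 0.10 (SE; adjusted p = 0.00344) on the LPi-Lp diet, each under 2-fold. These 3 differences share the 4 Sham mice.

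**Figure D4:**
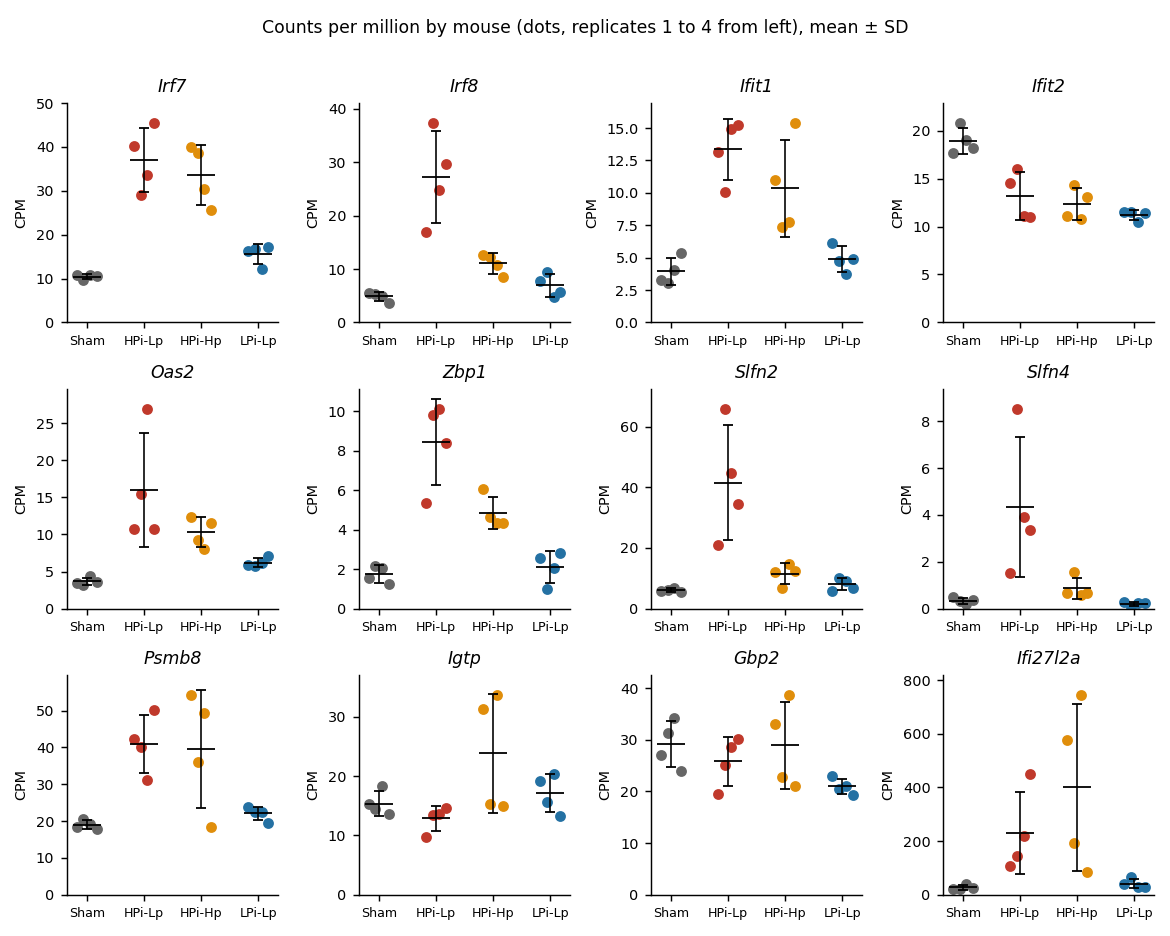
CPM of 12 of the genes (y axes, starting at 0) in each mouse (dots) of the 4 groups (x axes; HPi-Lp, HPi-Hp and LPi-Lp are the 5/6 Nx groups), with the mean and SD. Irf7 is raised in both HPi groups, Slfn2 and Slfn4 mainly in HPi-Lp, and Igtp is high in 2 of the 4 HPi-Hp mice.

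Isg15, a ubiquitin-like protein that is joined to other proteins, and Usp18, the protease that removes it, had few counts. Isg15 was at 4.35, 3.45, 3.43 and 3.32 in Sham mice, 4.48, 7.57, 6.67 and 6.71 in HPi-Lp mice, 7.53, 4.57, 6.15 and 8.15 in HPi-Hp mice and 2.87, 2.95, 3.42 and 2.95 in LPi-Lp mice (CPM). The HPi-Lp and HPi-Hp mice lay above the other groups. Against LPi-Lp mice its log2 fold change in HPi-Lp mice was 1.07 ± 0.26 (SE; adjusted p = 0.021) by edgeR, a call that was lost without HPi-Lp replicate 2 or replicate 4. Against Sham it was 0.86 ± 0.23 (SE; adjusted p = 0.0138), under 2-fold. Usp18 was at 1.5, 2.32, 2.8 and 1.86 in Sham mice, 2.65, 4.14, 6.58 and 6.26 in HPi-Lp mice, 3.55, 2.69, 2.55 and 4.05 in HPi-Hp mice and 3.41, 3.2, 1.53 and 3.62 in LPi-Lp mice (CPM), with overlap between HPi-Lp and Sham mice. Between them its log2 fold change was 1.27 ± 0.35 (SE; adjusted p = 0.015) by edgeR, and the adjusted p was 0.0528 without Sham replicate 1.

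The 5 OAS genes, which make or relate to the enzymes that turn on RNase L when they meet double-stranded RNA, were all called in HPi-Lp mice against both Sham and LPi-Lp mice. Oas2 was at 3.51, 3.19, 4.38 and 3.56 in Sham mice, 10.8, 15.5, 27 and 10.7 in HPi-Lp mice, 12.4, 9.31, 8.02 and 11.5 in HPi-Hp mice and 5.85, 5.71, 6.12 and 7.09 in LPi-Lp mice (CPM), HPi-Lp mice lying above Sham and LPi-Lp mice. By edgeR its log2 fold change was 2.18 ± 0.31 (SE; adjusted p = 0.000449) against Sham and 1.38 ± 0.31 (SE; adjusted p = 0.0152) against LPi-Lp mice. Oasl2 was at 10.6, 12, 13.8 and 8.58 in Sham mice, 31.4, 26, 36.1 and 31.5 in HPi-Lp mice, 29.3, 14.9, 17.9 and 24.7 in HPi-Hp mice and 13.8, 19.5, 10.9 and 16.1 in LPi-Lp mice (CPM), and HPi-Lp mice did not overlap with Sham or with LPi-Lp mice. Its log2 fold change was 1.53 ± 0.16 (SE; adjusted p = 0.000104) against Sham and 1.05 ± 0.19 (SE; adjusted p = 0.00645) against LPi-Lp mice by edgeR.

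Oas1a, an enzyme of the family, was at 2.47 ± 0.35 (SE; adjusted p = 0.000463) against Sham on the log2 scale by edgeR. Oasl1 and Oas3 had the largest log2 fold changes of the family and few counts. Oasl1, a repressor of Irf7 translation, was at 0.539, 0.612, 0.0902 and 0.356 in Sham mice, 1.77, 7.28, 4.15 and 3.999 in HPi-Lp mice, 1.08, 1.55, 0.825 and 3.06 in HPi-Hp mice and 1.62, 0.251, 0.874 and 0.619 in LPi-Lp mice (CPM). Against Sham its log2 fold change was 3.47 ± 0.59 (SE; adjusted p = 0.00129) by edgeR. Oas3 was at 0.231, 0.393, 0.0451 and 0.277 in Sham mice, 1.07, 4.17, 2.47 and 2.06 in HPi-Lp mice, 0.861, 0.163, 0.75 and 1.53 in HPi-Hp mice and 0.758, 0.377, 0.437 and 0.381 in LPi-Lp mice (CPM), with 3.4 ± 0.62 (SE; adjusted p = 0.00194) against Sham by edgeR and no test in either comparison of another 5/6 Nx group with Sham, since it did not pass the count filter there. For both, HPi-Lp mice were above all Sham and all LPi-Lp mice. Without LPi-Lp replicate 3, the calls against LPi-Lp mice were lost for Oasl1, Oasl2 and Oas3, and each of Oasl1 and Oasl2 lost it without some other library too.

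The RNA helicases Ifih1 (MDA5) and Dhx58 (LGP2), sensors of viral RNA, rose by less. Dhx58 was at 2.54, 3.85, 3.7 and 2.81 in Sham mice, 5.36, 8.52, 9.14 and 7.68 in HPi-Lp mice, 5.59, 4.57, 8.02 and 6.73 in HPi-Hp mice and 6.66, 5.15, 4.88 and 4.57 in LPi-Lp mice (CPM), with a log2 fold change against Sham of 1.31 ± 0.24 (SE; adjusted p = 0.00216) in HPi-Lp mice by edgeR. Its 5/6 Nx mice were all above Sham. Ifih1 was at 6.24, 7.6, 7.89 and 5.18 in Sham mice, 9.77, 9.32, 13.2 and 14.8 in HPi-Lp mice, 11.9, 10.04, 9.75 and 6.998 in HPi-Hp mice and 9.21, 10.4, 7.65 and 5.81 in LPi-Lp mice (CPM), with 0.86 ± 0.21 (SE; adjusted p = 0.00962) in the same comparison, under 2-fold. All HPi-Lp mice were higher than all Sham mice.

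Of the 9 other antiviral effectors, 5 were called in HPi-Lp mice against Sham, among them Zbp1, a sensor of Z-form nucleic acid, and Rsad2 (viperin). Zbp1 was at 1.54, 2.19, 2.07 and 1.23 in Sham mice, 5.36, 9.82, 10.1 and 8.39 in HPi-Lp mice, 6.08, 4.65, 4.35 and 4.32 in HPi-Hp mice and 2.55, 1.004, 2.04 and 2.81 in LPi-Lp mice (CPM), with log2 fold changes of 2.32 ± 0.29 (SE; adjusted p = 0.000233) against Sham and 2.01 ± 0.37 (SE; adjusted p = 0.00729) against LPi-Lp mice by edgeR. The HPi-Lp mice overlapped only with HPi-Hp mice. Mx1, a GTPase against influenza virus, was at 0.655, 0.481, 0.992 and 1.11 in Sham mice, 3.03, 4.59, 3.84 and 3.23 in HPi-Lp mice, 3.07, 0.653, 1.2 and 7.38 in HPi-Hp mice and 1.52, 1.07, 0.874 and 0.571 in LPi-Lp mice (CPM). The value of HPi-Hp replicate 4 was the highest of all. By edgeR the log2 fold change of Mx1 was 2.23 ± 0.36 (SE; adjusted p = 0.000886) in HPi-Lp mice and 1.98 ± 0.67 (SE; adjusted p = 0.0452) in HPi-Hp mice, each against Sham. As background, the Mx1 allele of C57BL/6J mice lacks coding exons, so its RNA does not give the full protein.

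Trim30a, a member of the TRIM family, was at a log2 fold change of 1.29 ± 0.18 (SE; adjusted p = 0.000425) and Rsad2 at 1.88 ± 0.30 (SE; adjusted p = 0.000837) against Sham by edgeR. Bst2 and Parp14, the 2 of the 9 with the most counts, were not called. Bst2 was at 47.7, 41.8, 42.4 and 41.5 in Sham mice, 31.6, 50.8, 44.7 and 48.8 in HPi-Lp mice, 58.1, 43.2, 48.4 and 41.7 in HPi-Hp mice and 36.7, 31.1, 34.9 and 30.9 in LPi-Lp mice (CPM), with overlap between HPi-Lp and Sham mice and a log2 fold change of 0.075 ± 0.14 (SE; adjusted p = 0.702) by edgeR. In LPi-Lp mice every value was below every Sham value, at -0.28 ± 0.10 (SE; adjusted p = 0.0483). Parp14, an ADP-ribosyl transferase, was at 22.9, 23.9, 22.5 and 20.9 in Sham mice, 27.2, 39.2, 40.9 and 32.4 in HPi-Lp mice, 32.3, 19.8, 34.9 and 24.3 in HPi-Hp mice and 23.7, 28.5, 25.3 and 17.4 in LPi-Lp mice (CPM), with 0.69 ± 0.13 (SE; adjusted p = 0.0026) in HPi-Lp mice against Sham by edgeR. Its HPi-Lp mice were all above Sham, by less than 2-fold. Mx2, with a log2 fold change of 1.13, lost its call against Sham without Sham replicate 2 or 3 or HPi-Lp replicate 4.

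Ifi27l2a had the most counts of the 45 genes, 56823 over the 16 libraries, and the widest spread. It was at 21.3, 22.3, 40.1 and 26.7 in Sham mice, 109, 143, 218 and 450.4 in HPi-Lp mice, 578, 193, 744 and 86.4 in HPi-Hp mice and 41.4, 65.8, 28.6 and 28.6 in LPi-Lp mice (CPM). Both HPi groups of 5/6 Nx mice were above all Sham and all LPi-Lp mice, and within each of them the highest mouse was several times the lowest. Its log2 fold change by edgeR was 3.11 ± 0.44 (SE; adjusted p = 0.000434) in HPi-Lp mice and 3.95 ± 0.63 (SE; adjusted p = 0.0093) in HPi-Hp mice, each against Sham. Between HPi-Lp and LPi-Lp mice it was 2.48 ± 0.46 (SE; adjusted p = 0.00772). Ifi44, an interferon-induced cytoplasmic protein, was at 1.49 ± 0.36 (SE; adjusted p = 0.00878) in HPi-Lp mice against Sham by edgeR. It had few counts, 18 to 28 in a Sham library and 31 to 176 in a library of HPi-Lp mice. Ifi35 was at 37.2, 31.7, 35.1 and 34.9 in Sham mice, 36.6, 25.6, 39.5 and 31.3 in HPi-Lp mice, 45.4, 54.3, 53.3 and 42.8 in HPi-Hp mice and 30.9, 46.9, 35.2 and 34.8 in LPi-Lp mice (CPM), with -0.012 ± 0.14 (SE; adjusted p = 0.955) in HPi-Lp mice against Sham by edgeR. The HPi-Hp mice were all above Sham, at 0.57 ± 0.13 (SE; adjusted p = 0.0132).

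The interferon-inducible GTPases, which include the Irgm and guanylate-binding (Gbp) proteins, act in the defence against microbes inside vacuoles. As listed here, they were the only one of the 10 roles with no gene called in HPi-Lp mice against Sham. The list leaves out Mx1, also a GTPase, and Mx2. Both were placed with the other antiviral effectors, and both were called. Over the 9 genes, the log2 fold changes ran from -0.20 (Igtp) to 0.55 (Gbp3). Gbp2 was at 27.1, 31.3, 34.1 and 24 in Sham mice, 19.5, 25, 28.7 and 30.1 in HPi-Lp mice, 33, 22.9, 38.7 and 21.1 in HPi-Hp mice and 22.9, 20.5, 21.1 and 19.4 in LPi-Lp mice (CPM), with -0.12 ± 0.16 (SE; adjusted p = 0.571), and Irgm1 at 21, 20.6, 24.2 and 17.8 in Sham mice, 19.8, 17.9, 23 and 25.9 in HPi-Lp mice, 25.5, 18.6, 21.4 and 19.2 in HPi-Hp mice and 16.2, 20.1, 15.8 and 16.3 in LPi-Lp mice (CPM), with 0.10 ± 0.14 (SE; adjusted p = 0.61) by edgeR. For both, HPi-Lp and Sham mice overlapped. Of the 9, 1 passed the adjusted p alone, on the higher side.

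Within HPi-Hp mice, several GTPases split the 4 mice. Igtp was at 31.3, 15.3, 33.7 and 15 CPM in replicates 1 to 4, against 15.2, 14.4, 18.3 and 13.6 in Sham. Iigp1 was at 34.2, 9.72, 28.3 and 13.1 CPM and Gbp5 at 19.3, 6.86, 18.4 and 5.03 CPM in the same order. Replicates 1 and 3 were high in all 3 genes, and replicates 2 and 4 were within or below the Sham range. Psmb9, at 34.9, 12.7, 30.7 and 11 CPM, and Ifi27l2a had the same pair of mice on top. Igtp was lower in every HPi-Lp mouse than in every HPi-Hp mouse, at -0.88 ± 0.30 (SE; adjusted p = 0.0757) by edgeR. Gbp3, at 36.5, 23.1, 45.2 and 13.3 CPM, was the only one of the 9 genes of this role called against Sham. Its log2 fold change was 1.13 ± 0.35 (SE; adjusted p = 0.0347) by edgeR, and it lost the call in 6 of the 8 fits that left out a library.

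The 5 Schlafen genes, regulators of growth arrest and tRNA in immune cells, were all called in HPi-Lp mice against Sham, though Slfn1 and Slfn8 overlapped with it. Slfn2, needed for quiescence of T cells and monocytes, was at 5.9, 6.03, 6.95 and 5.38 in Sham mice, 20.9, 65.9, 44.7 and 34.6 in HPi-Lp mice, 12.2, 6.78, 14.8 and 12.4 in HPi-Hp mice and 5.96, 10.2, 9.03 and 6.95 in LPi-Lp mice (CPM). The HPi-Lp mice were above every other mouse. By edgeR its log2 fold change was 2.83 ± 0.31 (SE; adjusted p = 0.00011) against Sham, 1.85 ± 0.35 (SE; adjusted p = 0.0113) against HPi-Hp mice and 2.39 ± 0.34 (SE; adjusted p = 0.00301) against LPi-Lp mice. Slfn5 was at 29.8, 29.9, 32.6 and 30.6 in Sham mice, 56.9, 146, 105 and 95.4 in HPi-Lp mice, 69.2, 52.3, 97.2 and 51.1 in HPi-Hp mice and 57.1, 54.5, 50.1 and 38.8 in LPi-Lp mice (CPM). Every mouse after 5/6 nephrectomy was above every Sham mouse. Its log2 difference from Sham by edgeR was 1.77 ± 0.23 (SE; adjusted p = 0.000309) on the HPi-Lp diet, 1.21 ± 0.21 (SE; adjusted p = 0.0094) on the HPi-Hp diet and 0.80 ± 0.13 (SE; adjusted p = 0.00349) on the LPi-Lp diet.

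Slfn4, a gene of myeloid cells, was at 0.501, 0.306, 0.18 and 0.356 in Sham mice, 1.51, 8.53, 3.93 and 3.35 in HPi-Lp mice, 0.645, 1.55, 0.5999 and 0.656 in HPi-Hp mice and 0.271, 0.0628, 0.218 and 0.238 in LPi-Lp mice (CPM), with few counts outside HPi-Lp mice. Its log2 fold change was 3.72 ± 0.58 (SE; adjusted p = 0.000764) against Sham and 4.43 ± 0.67 (SE; adjusted p = 0.0035) against LPi-Lp mice by edgeR, the largest among the 45 genes in both comparisons. Both sizes rest on 4 to 13 counts in a Sham library and 1 to 5 in a library of LPi-Lp mice, against 24 to 489 in HPi-Lp mice. Slfn4 passed the count filter there through the HPi-Lp mice. Against HPi-Hp mice its log2 fold change was 2.34 ± 0.60 (SE; adjusted p = 0.0328), a call lost in 6 of the 8 fits that left out a library. Replicate 1 of HPi-Lp mice overlapped there with HPi-Hp replicate 2. Slfn1 was at 2.68 ± 0.64 (SE; adjusted p = 0.00789) against Sham by edgeR. It had few counts, 6 to 14 in a Sham library and 8 to 322 in a library of HPi-Lp mice. Slfn8, at 1.25 against Sham, lost its call in 6 of 8 such fits.

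In antigen processing, Psmb8 (a subunit of the immunoproteasome) and Tap1 (a peptide transporter) passed the adjusted p against Sham in both HPi groups. Psmb8 was at 18.5, 20.6, 19.1 and 17.9 in Sham mice, 42.3, 40.2, 31.1 and 50.1 in HPi-Lp mice, 54.3, 36, 49.5 and 18.4 in HPi-Hp mice and 23.9, 22.5, 22.4 and 19.6 in LPi-Lp mice (CPM), with 1.16 ± 0.15 (SE; adjusted p = 0.000245) in HPi-Lp mice and 1.13 ± 0.29 (SE; adjusted p = 0.0184) in HPi-Hp mice, each against Sham by edgeR. Replicate 4 of HPi-Hp mice was within the Sham range. Tap1 was at 24.9, 22.3, 26.1 and 24.4 in Sham mice, 35.4, 49.7, 34.8 and 51.1 in HPi-Lp mice, 60.1, 42.1, 64.1 and 31.9 in HPi-Hp mice and 32.8, 26.9, 32 and 23 in LPi-Lp mice (CPM), with 0.86 ± 0.15 (SE; adjusted p = 0.00136) and 1.1 ± 0.22 (SE; adjusted p = 0.01) in the same comparisons. All mice of both HPi groups after 5/6 nephrectomy were above Sham.

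The comparison of HPi-Lp with LPi-Lp mice asks about phosphate at a low protein intake. In it 18 of the 45 genes were higher and none was lower, against 7.90% and 3.98% of all 16253 genes tested. By the adjusted p alone, 20 were higher and none lower, against 11.1% and 8.96% of all genes. The median log2 fold change was 0.74, and -0.016 over all genes. Called were all 5 OAS genes, 4 of 5 Schlafen genes, Irf7, Irf8, Ifit1, Isg15, Mx1, Zbp1, Trim30a, Ifi44 and Ifi27l2a. Over the 8 fits that left out a library, Slfn8 kept its call in 1, Ifi44 in 2 and Slfn5 in 3, so that Slfn2 and Slfn4 were the 2 Schlafen genes called in all 8. Without LPi-Lp replicate 3 the count was 12, and with limma on log2(FPKM + 1) it was 7. Calls on the higher side over all genes went from 1284 to 902 and to 663 in these fits.

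The comparison of HPi-Lp with HPi-Hp mice asks about protein at a high phosphate intake. Here 3 of the 45 genes (Irf8, Slfn2 and Slfn4) were higher and none was lower, against 5.01% and 3.11% of all 16198 genes tested, a share of the 45 near that background. By the adjusted p alone, the same 3 were higher, against 7.09% of all genes. The median log2 fold change was 0.14, and 0.0098 over all genes, and it was 0.23 without HPi-Hp replicate 1. For Irf7 the difference was 0.14 ± 0.20 (SE; adjusted p = 0.67) and for Ifit1 0.37 ± 0.27 (SE; adjusted p = 0.365) by edgeR. A p that misses the threshold does not show that the groups were alike.

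The HPi-Hp mice differed from Sham in surgery and in protein intake. Of the 44 genes tested, 19 were higher and none was lower, against 9.41% and 2.75% of all 15882 genes. By the adjusted p alone, 23 were higher and 1 (Ifit2) lower, against 17.5% and 13.9%. The median log2 fold change was 0.92, and 0.018 over all genes. Ifi27l2a, Oasl1 and Mx1 had the largest of the called log2 fold changes, 3.95, 2.07 and 1.98. The calls of Oasl1 and Mx1 were lost in 5 and 6 of the 8 fits that left out a library. The count fell to 12 without Sham replicate 1, 2 or 4 or without HPi-Hp replicate 3, and to 4 with limma on log2(FPKM + 1). Calls on the higher side over all genes fell from 1495 to 1026, 874, 1213 and 1184 in those left-out fits, and to 595 with limma. Without HPi-Hp replicate 4, by contrast, the count was 15 while calls higher over all genes rose to 2082. The smooth muscle markers of that mouse summed to 23205 CPM, within the Sham range.

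The LPi-Lp mice differed from Sham in surgery and in phosphorus intake. None of the 43 genes tested was called in either direction by edgeR, against 8.79% higher and 2.08% lower of all 16071 genes. At an unadjusted p under 0.05 there were 17 of the 43 and 7019 of all genes (43.7%), a share of the 43 near that background, and DESeq2 called 1 (Rsad2). By the adjusted p alone, 7 were higher (among them Irf7, Slfn5, Oas2 and Dhx58) and 3 lower (Ifit2, Bst2 and Gbp2), against 17.3% and 14.5% of all genes. The median log2 fold change was 0.35, and 0.020 over all genes. Irf7 was at 0.67 ± 0.14 (SE; adjusted p = 0.00649) by edgeR. The count was 1 without Sham replicate 1 or 3 or LPi-Lp replicate 4.

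Between HPi-Hp and LPi-Lp mice, which differed in phosphorus and protein, edgeR called none of the 44 genes tested. It called 0% of all 15850 genes in either direction. At an unadjusted p under 0.05 there were 19 of the 44 genes and 1420 of all genes (8.96%). DESeq2 called 3 of the 44 (Irf7, Isg15 and Ifi27l2a), among 30 genes higher and 78 in either direction over all genes. The log2 fold change of Irf7 was 1.1 ± 0.19 (SE; adjusted p = 0.397) by edgeR. The median over the 44 was 0.51, and -0.0008 over all genes. These 6 comparisons use the same 16 libraries, so that each group enters 3 of them.

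The genes around the pathway were read from lists written beside the 45. For these lists and the markers below, the share of all genes called higher in HPi-Lp mice was 15.0% against Sham, 5.01% against HPi-Hp mice and 7.90% against LPi-Lp mice. The shares called lower were 7.18%, 3.11% and 3.98%. Against Sham, 9.41% of all genes were called higher in HPi-Hp mice and 8.79% in LPi-Lp mice. Of 21 interferon ligands, none had enough counts for a test in any comparison. The highest was Ifna7, with 15 counts in 1 library of HPi-Hp mice and none in the other 3. Ifng had at most 2 counts in a library, and Ifnb1 had none in any library. RNA of the ligands was therefore at or near 0 in these aortas at this depth.

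Of the 6 receptor subunits, Ifnar2 was called in HPi-Lp mice against Sham, at 1.01 ± 0.14 (SE; adjusted p = 0.000448) by edgeR, from a mean of 23.3 to 45.3 CPM. Ifnar1 was at 0.30 ± 0.14 (SE; adjusted p = 0.112) and Ifngr1 at 0.65 ± 0.13 (SE; adjusted p = 0.00344) in that comparison. In the relay, 1 of 8 genes was called in each of the 3 comparisons of HPi-Lp mice, and it was Socs3, a brake on cytokine signalling that interleukin-6 also induces. Its mean was 12.2 CPM in Sham, 79.6 in HPi-Lp mice, 15.5 in HPi-Hp mice and 9.92 in LPi-Lp mice, with 2.76 ± 0.36 (SE; adjusted p = 0.000283) against Sham. Irf9 was at 0.60 ± 0.10 (SE; adjusted p = 0.00136) against Sham by edgeR, under 2-fold. Against Sham, 1 of 6 receptor subunits and 1 of 8 relay genes are near the 15.0% of all genes called higher.

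Of 13 upstream sensors and adaptors, 4 were called higher in HPi-Lp mice against each of the other 3 groups. They were Irf5, Tlr7, Tlr9 and Tmem173, the adaptor better known as STING. Tmem173 had a mean of 8.26 CPM in Sham, 34.7 in HPi-Lp mice, 11.9 in HPi-Hp mice and 8.90 in LPi-Lp mice, with 2.13 ± 0.29 (SE; adjusted p = 0.000412) against Sham and 1.54 ± 0.32 (SE; adjusted p = 0.0152) against HPi-Hp mice by edgeR. Irf5, a factor of macrophages, was at 2.06 ± 0.29 (SE; adjusted p = 0.000435) against Sham. The RNA sensor Ddx58 (RIG-I) was at 0.18 ± 0.24 (SE; adjusted p = 0.562), with means of 22.3 CPM in HPi-Lp mice and 20.4 in Sham. In HPi-Hp mice against Sham, Ikbke and Irf3 were the 2 called, at 1.15 ± 0.24 (SE; adjusted p = 0.0109) and 1.06 ± 0.23 (SE; adjusted p = 0.0125) by edgeR.

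Among 10 further targets of interferon-gamma, 9 were tested against Sham in HPi-Lp mice and 3 were called: Cxcl9, Cxcl10 and Nos2. Cxcl9, a chemokine for T cells, was at 2.01 ± 0.44 (SE; adjusted p = 0.00516), and it was called in HPi-Hp mice too, at 2.85 ± 0.63 (SE; adjusted p = 0.0126), by edgeR. Cxcl10 was at 3.19 ± 0.80 (SE; adjusted p = 0.00996). Against Sham, 3 of 9 were called in HPi-Hp mice too, and 3 of 9 in LPi-Lp mice, each time Cxcl9, Cd274 and Nos2. Gbp4 was lower in HPi-Lp mice than in HPi-Hp mice, at -1.55 ± 0.37 (SE; adjusted p = 0.0262), and than in LPi-Lp mice, at -1.0 ± 0.21 (SE; adjusted p = 0.0123), by edgeR.

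Markers of other cell types moved with the groups. All 10 macrophage markers were called higher in HPi-Lp mice against Sham and against LPi-Lp mice, and 9 of 10 against HPi-Hp mice. Their summed level was 232 to 357 CPM in Sham, 752 to 2648 CPM in HPi-Lp mice, 333 to 665 CPM in HPi-Hp mice and 232 to 389 CPM in LPi-Lp mice, with no marker at 0. Of 8 monocyte and neutrophil markers, 7 were tested and 6 called against Sham in HPi-Lp mice, and their summed level was 27.5 to 131 CPM there and 2.69 to 8.44 CPM in Sham. The neutrophil marker Ly6g was at 0 in Sham, HPi-Lp and LPi-Lp mice. The 6 smooth muscle markers were all lower in HPi-Lp mice than in Sham, with a summed level of 2223 to 5034 CPM against 21666 to 25737 CPM. They were also lower than in HPi-Hp mice (5 of 6) and LPi-Lp mice (6 of 6). The part of these cells in the differences of the 45 genes was not tested.

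Slfn2 and Irf7 are set beside the macrophage markers here. In HPi-Lp mice, replicates 1 to 4 had macrophage sums of 752, 2648, 1611 and 1406 CPM, and Slfn2 was at 20.9, 65.9, 44.7 and 34.6 CPM, in the same order. Irf7 was at 40.2, 28.9, 33.5 and 45.5 CPM in these mice, lowest where the macrophage sum was highest. In HPi-Hp mice the macrophage sums were 665, 535, 333 and 453 CPM, all below those of HPi-Lp mice. There Slfn2 was at 12.2, 6.78, 14.8 and 12.4 CPM, highest where the macrophage sum was lowest. Irf7 was at 40.02, 38.6, 30.3 and 25.6 CPM in these mice, highest where the sum was highest. Neither gene kept its order with the macrophage sum across the 2 groups.

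Adipocyte markers were higher than Sham in all 3 groups of 5/6 Nx mice, with 4 of 5 called on the HPi-Lp diet and 5 of 5 on each of the others. In HPi-Hp mice, their summed levels in replicates 1 to 4 were 4758, 2449, 6315 and 1041 CPM, in the same order as Ifi27l2a at 578, 193, 744 and 86.4 CPM. In HPi-Lp mice the sums were 2817, 3444, 3913 and 5091 CPM, again in the order of Ifi27l2a. In LPi-Lp mice the sums were as high, 6911, 3023, 3694 and 2494 CPM, and Ifi27l2a was at 41.4, 65.8, 28.6 and 28.6 CPM. These orders are descriptions over 4 mice that share their libraries. The part of fat around the vessel in the level of Ifi27l2a, Psmb9 or the GTPases was not tested.

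**Figure D5:**
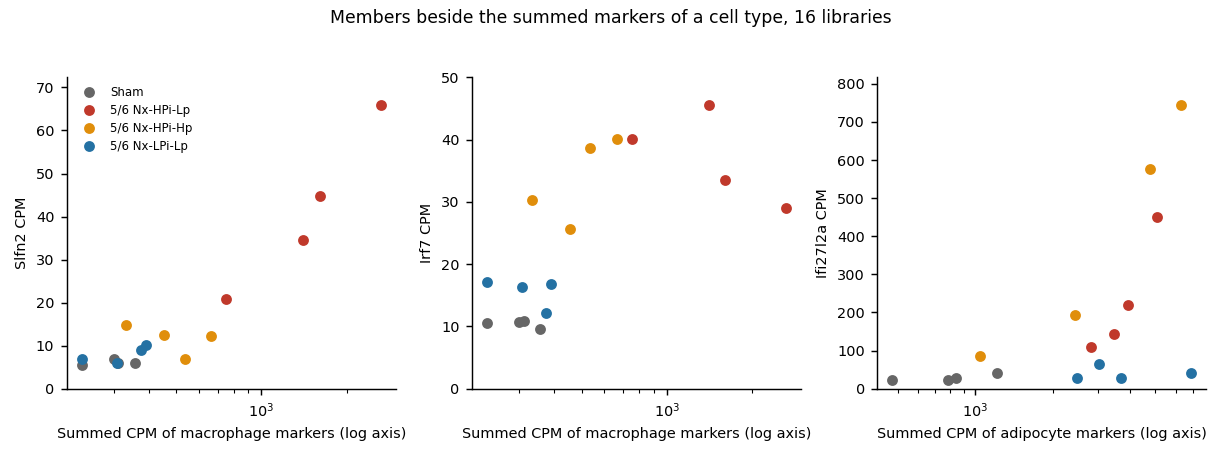
Slfn2, Irf7 and Ifi27l2a (y axes, CPM) against the summed CPM of the macrophage or adipocyte markers (x axes, log scale), with 1 point for each of the 16 libraries, coloured by group. Slfn2 is highest where the macrophage sum is 2648 CPM, Irf7 is about as high in both HPi groups of 5/6 Nx mice, and LPi-Lp mice have low Ifi27l2a at high adipocyte sums.

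Other marker lists moved less evenly. Of 4 markers of plasmacytoid dendritic cells, the main source of interferon-alpha in blood, 2 were tested and neither was called in HPi-Lp mice against Sham, and the sum of the list was 3.30 to 13.6 CPM there and 2.07 to 6.64 CPM in Sham. In HPi-Hp mice against Sham, 1 of the 2 was called higher. Of 10 T and NK cell markers, 7 were tested and 1 was called, lower than Sham. Thymocyte markers were lower than Sham in HPi-Lp mice, with 4 of 4 tested called, a sum of 0.132 to 1.58 CPM against 6.67 to 41.8 CPM, and Rag2 and Ptcra at 0. Of 6 B cell markers 1 was called higher, near the 15.0% of all genes, and of 6 endothelial markers 3. Fibroblast markers were higher in HPi-Lp mice in 3 of 5 against Sham and in 5 of 5 against each of HPi-Hp and LPi-Lp mice. In the comparison with Sham, sympathetic neuron markers were higher in all 4 tested of 6. In the sympathetic neuron list, HPi-Lp replicates 1 to 4 had sums of 1011, 38.8, 196 and 818 CPM. Replicate 1 had the lowest level averaged over the 45 genes (3.66) among these mice. Replicate 4, whose sum was also high, had the highest (4.17).

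Annotation limits some of these values. By the coordinates in the deposited tables, 21 of the 45 genes overlap another annotated gene, and 6 overlap one on the same strand. Igtp and Irgm2 overlap each other on the same strand, and Psmb9 and Tap1 on opposite strands, as do Irf7 and Phrf1. Whether the libraries kept strand is not given in the sources used here, so reads from overlapping genes could not be told apart with certainty. Ifit3, Oas1a, Slfn8, Ifi27l2a and Trim30a have close copies in the genome, among which reads may have been split or dropped.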

How the data were processed

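Total RNA of mouse aorta was sequenced as poly(A)-selected libraries, 1 per mouse, in 4 groups of 4 taken from the labels. After read cleaning, the authors used HISAT2 for alignment to the mm10 genome and featureCounts 1.5.0-p3 for counts per gene, and for 54532 genes they deposited unnormalised whole-number counts and FPKM. In the deposited FPKM, scaling between libraries had already been applied, since each library's denominator equalled its DESeq2 size factor times a common depth, with a ratio of 1 throughout. Strand and multi-mapping settings are not given in the sources used here.

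The 45 genes, the other gene lists and the tests were chosen with earlier results of these data known, so no count over a list is independent evidence. Counts were tested with edgeR 4.0.16 in R 4.3.3 by its quasi-likelihood test on the 8 libraries of a comparison (filterByExpr, TMM scaling), with Benjamini-Hochberg adjustment over all genes tested. A call needed an adjusted p of 0.05 or less and a change of 2-fold or more. The edgeR script was tested on simulated data. Standard errors are those implied by the quasi-likelihood F statistic. No 2 libraries of a group were copies, as chi-square per gene was at least 20.03 for any replicate pair. Given with every value were, by rule, the 2 genes with the most counts in each role and the 3 called genes with the largest change in each comparison. Irf7, Ifit1, Zbp1, Igtp, Iigp1, Gbp3, Gbp5 and Psmb9 were added after their values were seen.

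Alternatives were relative log expression (RLE) scaling, DESeq2 1.42.0, no count filter, all 16 libraries in 1 fit, mitochondrial genes left out, a block on the replicate number, limma 3.58.1 on log2(FPKM + 1) or log2(FPKM + 0.1) with genes kept from 0.5 FPKM or with none dropped, no fold-change threshold, and each library left out. Promoter windows from RefSeq (GRCm38.p6) were read on the strand of the gene. Totals of 13659525 to 57276915 counts limit the precision mainly for Oas3, Slfn1, Ifi44, Slfn4, Mx1 and Oasl1. A result on 1 gene of the pathway lists is not reported here.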

Additional observations from a re-analysis of the deposited data

Results flagged for a closer look

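Over 112 sets of 4 libraries (a gene or a mean in 1 group), 8 held a highest or lowest library whose gap to its nearest neighbour was over 0.829 of the set's range, and chance alone flags about 1 in 20 sets. For the mean log2(CPM + 1) of the 45 genes it was HPi-Lp replicate 1, at 3.66. In Slfn4 it was HPi-Hp replicate 2, at 1.55 CPM. In Oas3 it was LPi-Lp replicate 1, at 0.758 CPM. Isg15 was flagged in Sham replicate 1, at 4.35 CPM, and in LPi-Lp replicate 3, at 3.42 CPM. Ifit2 was flagged in LPi-Lp replicate 3, at 10.49 CPM, Bst2 in Sham replicate 1, at 47.7 CPM, and Irgm1 in LPi-Lp replicate 2, at 20.1 CPM. The cause of these gaps was not tested.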

How the results depend on the processing

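In HPi-Lp mice against Sham, the 23 calls were 12 with limma on log2(FPKM + 1), filtered or not, and 21 to 24 with a library left out. There the median log2 fold change of 1.13 became 0.69 with log2(FPKM + 1), 0.86 with log2(FPKM + 0.1) and 0.66 unfiltered, and ran from 0.91 to 1.15 with a library left out. Against LPi-Lp mice, the 18 calls were 7 with limma on log2(FPKM + 1), filtered or not, and the median was 0.44, 0.57 with log2(FPKM + 0.1) and 0.43 unfiltered, or 0.62 to 0.81 with a library left out. Against HPi-Hp mice, the 3 calls were 1 with limma on log2(FPKM + 1), filtered or not, and with a library left out 0 to 1 gene was lower and the median was 0.098 to 0.23. In HPi-Hp mice against Sham, the 19 calls were 4 with limma on log2(FPKM + 1), filtered or not, 12 with log2(FPKM + 0.1), and 12 to 21 with a library left out, and the median was 0.57, or 0.54 unfiltered. In LPi-Lp mice against Sham, calls were 1 with DESeq2 and 0 to 1 with a library left out, and the median was 0.19 with log2(FPKM + 1), 0.17 unfiltered and 0.25 to 0.38 with a library left out. Between HPi-Hp and LPi-Lp mice, DESeq2 called 3 and no count filter 1. Without a fold-change threshold, 1 gene was lower in HPi-Lp mice than in Sham, 1 than in HPi-Hp mice, and 1 in HPi-Hp mice than in Sham, while in LPi-Lp mice 7 were higher and 3 lower. The GAS share fell to 11.1% with a narrower core, while that of all genes in the promoter table fell from 9.55% to 1.35%. With filtered log2(FPKM + 1), calls higher over all genes fell from 2480, 1284, 811 and 1495 to 1256, 663, 431 and 595 in the first 4 of these comparisons. A pseudocount of 1 shrinks the folds of low genes by construction, and leaving out a library leaves fewer samples. The cause of the other changes was not tested.

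No consistent pairing by replicate number was seen, since no comparison had all 4 same-numbered pairs correlated over 0.1. The highest correlation was 0.41, for replicate 4 between HPi-Hp and LPi-Lp mice. This check cannot show that no mice were paired. With a replicate block the calls were 22 against Sham, 0 against HPi-Hp mice and 12 against LPi-Lp mice in HPi-Lp mice, and 15 in HPi-Hp mice against Sham. Calls on the higher side over all genes fell, in the same order, from 2480, 811, 1284 and 1495 to 2184, 255, 908 and 1043. Over 2464 alternative values of the genes named by rule, 2333 kept their side of the threshold, 122 lost the call, 9 gained it and no called gene reversed. The genes added after their values were seen are not in this tally. Most of those that kept their side, 1798 values, were uncalled in both fits and had no call to lose. The 122 lost calls are thus a larger share of the calls than of the 2464. Among the 1798 uncalled values, 38 changed sign. RLE scaling, mitochondrial genes left out and 1 fit of all 16 libraries kept each count of calls within 1.5 times. Depth limits Oas3, Slfn1, Ifi44, Slfn4 and the interferon ligands most.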
